A study of Mus musculus with 27 samples.

Results

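The 10 liver carboxylesterases Ces1c, Ces1d, Ces1e, Ces1f, Ces1g, Ces2a, Ces2c, Ces2e, Ces3a and Ces3b were followed across 9 conditions of mouse liver culture. They were taken by gene name, 10 of the 21850 genes in the deposited table, and all 10 passed edgeR's filter on low counts in every comparison. Ces3b, at 0 to 2 counts in each HM-Wnt library, passed there only through the other groups, where it was higher. The RNA-seq libraries came from freshly isolated hepatocytes, from hepatocyte organoids (HepOrgs, adult hepatocytes expanded in 3D), and from periportal assembloids, in which HepOrgs were recombined with cholangiocytes and portal mesenchymal cells. There were 3 libraries per condition, 27 in all, with 30289364 to 65348596 counts each.

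All cells were primary, from adult mice of both sexes on the C57BL/6 background. HepOrgs at passage 2 were WT and were kept either in HM-Wnt, an expansion medium, or in MM, the minimal medium used for co-culture, for 1 week (7 days) or 2 weeks (14 days). Both media held WNT3a conditioned medium and a ROCK inhibitor. HM-Wnt also held growth factors and small molecules such as EGF, HGF, FGFs, RSPO1, CHIR and A83-01. By the paper's methods, HepOrgs were grown in HM-Wnt before the move to MM. Assembloids were WT and grown in MM from 10 HepOrgs and 1000 cholangiocytes, with 250 mesenchymal cells in the homeostasis form and 2500 in the fibrosis-like form, for 1 week (7 days) or 2.5 weeks (18 days). The cholangiocytes carried a nuclear tdTomato reporter and the mesenchymal cells were sorted with a PDGFRα–H2B–GFP reporter. Assembloids hold no endothelial or immune cells by design, and each library is a bulk mixture. The titles of all fresh libraries call them WT, while the genotype label of the third reads MDR2-het. That library was kept in the fresh group and is in every comparison with fresh hepatocytes.

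Carboxylesterases are serine hydrolases that cut ester and amide bonds in drugs, pesticides and lipids, and most of them sit in the lumen of the endoplasmic reticulum of hepatocytes. The mouse carries many more genes of this family than the human does, in tandem arrays. Ces1c is secreted and is the main carboxylesterase of mouse plasma, Ces1d is the triacylglycerol hydrolase that supplies lipid for very low density lipoprotein (VLDL), Ces1e (egasyn) holds beta-glucuronidase in the endoplasmic reticulum, and Ces1g limits lipid build-up in the liver. Members of the Ces2 group act on many ester prodrugs, and Ces2c also cuts acylglycerols.

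All 10 genes lie on chromosome 8 of GRCm39 in a pair of arrays. The Ces1 array is on the minus strand, from Ces1c (chr8:93825643-93857942) to Ces1g (chr8:94028683-94063953). The array with Ces2 and Ces3 is on the plus strand, from Ces2a (chr8:105460630-105468266) to Ces3b (chr8:105810253-105820561). Reads of near-identical copies can be split or dropped by a counter, so stretches of 100 bases, the read length, were compared between the annotated transcripts of all carboxylesterase genes. No stretch was shared for Ces1d, Ces1e, Ces1f, Ces1g, Ces2a or Ces2e. Ces1c shared 0.747% of its stretches with Ces1b, Ces3a shared 2.97% with Ces3b, and Ces3b shared 4.12% with Ces3a. Ces2c shared 11.5% with the pseudogene Ces2d-ps, and its counts are the least certain of the 10.

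RefSeq promoter windows (GRCm38.p6, 250 bases before to 50 after the start) were matched for 7 of the 10 members. Ces1d, Ces1f and Ces3a were not matched. The sequences of Ces2a and Ces2e, 2 genes of the same array that moved in opposite directions, and of Ces3b and Ces1g, both among the deepest falls in HM-Wnt, are shown from 250 bases before the start up to the start. Capitals mark TTGCNNAA, a C/EBP-like motif, in Ces2a and Ces2e, and TATAAA, the TATA box, in Ces3b and Ces1g, each searched on both strands. Hits of the searched motifs did not overlap.
Ces2a, chr8:104733753-104734002, plus strand: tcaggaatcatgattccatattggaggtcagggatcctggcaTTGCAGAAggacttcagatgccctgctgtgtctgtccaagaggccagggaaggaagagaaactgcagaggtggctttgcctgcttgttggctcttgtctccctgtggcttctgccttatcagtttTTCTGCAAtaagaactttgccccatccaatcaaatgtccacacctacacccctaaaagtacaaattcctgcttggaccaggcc
Ces2e, chr8:104926010-104926259, plus strand: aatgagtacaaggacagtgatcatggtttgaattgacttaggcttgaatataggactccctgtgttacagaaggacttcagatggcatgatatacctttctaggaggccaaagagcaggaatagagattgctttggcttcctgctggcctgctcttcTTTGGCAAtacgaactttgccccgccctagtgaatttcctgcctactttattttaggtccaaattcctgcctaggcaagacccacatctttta
Ces3b, chr8:105083505-105083754, plus strand: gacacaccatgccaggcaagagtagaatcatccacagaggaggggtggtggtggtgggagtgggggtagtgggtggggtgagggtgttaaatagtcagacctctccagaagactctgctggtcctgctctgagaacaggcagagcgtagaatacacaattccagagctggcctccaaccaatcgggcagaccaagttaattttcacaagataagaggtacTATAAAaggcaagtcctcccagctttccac
Ces1g, chr8:93337210-93337459, minus strand: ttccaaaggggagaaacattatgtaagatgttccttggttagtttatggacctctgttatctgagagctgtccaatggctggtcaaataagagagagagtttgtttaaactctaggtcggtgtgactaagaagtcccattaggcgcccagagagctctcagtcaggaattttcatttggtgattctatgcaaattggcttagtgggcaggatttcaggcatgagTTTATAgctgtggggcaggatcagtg
TTGCNNAA stood in the windows of Ces1c, Ces2a and Ces2e, 3 of 7, and in 10.8% of all 32851 promoter windows. It lay 208 and 83 bases before the start of Ces2a and 93 before that of Ces2e. TATAAA stood in the windows of Ces1g and Ces3b, 2 of 7, and in 13.6% of all windows, 30 bases before the start of Ces3b and, on the opposite strand, 26 before that of Ces1g. An HNF4-like motif (CAAAGTCCA, 0.475% of all windows), an HNF1-like motif (GTTAATNAT, 0.801%) and a direct-repeat start (AGGTCAAAG, 0.426%) were in none of the 7 windows. Windows of both genes that fell and the gene that rose held TTGCNNAA.

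1 library has to be named before the results. Replicate 2 of the 1-week homeostasis assembloids held 0 counts of 9 members and 201 counts of Ces1c in a library of 35279254. Its 12 hepatocyte markers, such as Alb and Ttr, summed to 6569 CPM (counts scaled to a common library total), against 130623 and 270221 in the other libraries of its condition. Replicate 3 of the 1-week fibrosis-like assembloids was also low, at 14402 CPM, and its 9 mesenchyme markers summed to 291 CPM, against 2341 and 6066 in the other libraries of its condition. Tests on assembloids are given with and without the first of these libraries. In the other 25 libraries the hepatocyte markers summed to 43582 to 352242 CPM. Endothelial markers were near 0 in all 24 cultures (0.205 to 2.33 CPM in sum) and reached 41.2 to 189 CPM in fresh hepatocytes. Kupffer cell and immune markers summed to 0.634 to 25.1 CPM in the cultures and to 54.8 to 511 CPM in fresh hepatocytes. Cholangiocyte markers summed to 11.8 to 139 CPM in fresh hepatocytes and to 3644 to 15008 CPM in HepOrgs and assembloids.

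The first question was which carboxylesterases make up the level in each condition. Levels of different genes were compared as CPM per kb of the canonical transcript. In fresh hepatocytes Ces3a led with 1740 CPM per kb (range 1730 to 1755) and 44.0% ± 4.73 (SD, n = 3) of the summed level of the family. Its lowest library lay above the highest of the next gene, Ces1c, at 540 CPM per kb (475 to 627) and 13.5% ± 0.653 of the sum. Ces2a followed with 401 CPM per kb (331 to 466), and its range overlapped that of Ces1d at 306 CPM per kb (137 to 500). Ces1e, Ces1f and Ces3b had means of 293, 268 and 198 CPM per kb, and neighbours in this order did not separate beyond the spread of the libraries. Ces2e (115 CPM per kb, 81.8 to 162), Ces1g (70.9, 51.4 to 92.6) and Ces2c (51.0, 7.87 to 120) were the lowest of the 10. Together the members took 0.543% to 0.660% of all counts.

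The make-up was different in the cultures. In HepOrgs in HM-Wnt, Ces2e led with 268 CPM per kb (265 to 271) at 1 week and 213 (198 to 225) at 2 weeks, 41.9% ± 5.68 and 41.7% ± 6.47 (SD, n = 3) of the sum, against 2.94% ± 1.23 in fresh hepatocytes. Ces1c and Ces1d followed, and at 1 week these 3 genes did not overlap in range. In MM the lead was shared: at 1 week Ces1c (280 CPM per kb, 186 to 348), Ces1d (206, 96.8 to 263) and Ces2e (183, 168 to 205) overlapped, and at 2 weeks Ces2e, Ces1c, Ces1d and Ces1f, with means of 147, 132, 122 and 101 CPM per kb, overlapped from one to the next. Ces3a held 0.0530% ± 0.0138 of the sum in HM-Wnt at 1 week and 0.383% ± 0.294 in MM at 1 week. In fibrosis-like assembloids Ces2e again had the highest mean, with 59.4% ± 15.3 of the sum at 1 week and 47.0% ± 13.1 at 2.5 weeks. In homeostasis assembloids at 2.5 weeks it held 27.8% ± 14.1, next to 24.1% ± 7.44 for Ces1d and 21.0% ± 12.4 for Ces1c. The summed level was 3983 ± 435 CPM per kb in fresh hepatocytes and 523 ± 110 to 823 ± 156 across the 4 HepOrg conditions (SD, n = 3). In homeostasis assembloids it was 717, 2.2 and 367 at 1 week and 513 ± 127 (368 to 607) at 2.5 weeks. In fibrosis-like assembloids it was 113 ± 72.0 at 1 week and 284 ± 150 (110 to 370) at 2.5 weeks, where the ranges of both forms overlapped.

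**Figure D1:**
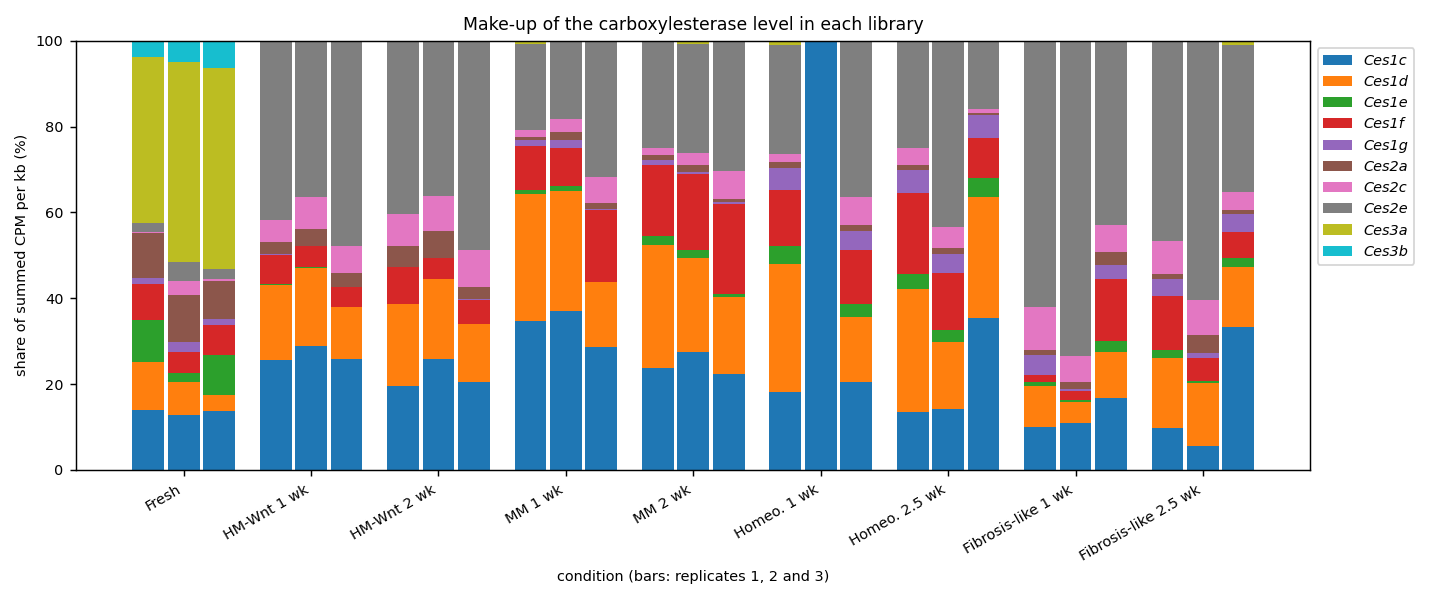
Stacked bars give the share of each of the 10 carboxylesterases in their summed level (CPM per kb of transcript, in percent) in each of 27 libraries, grouped by condition with replicates 1 to 3 side by side. Ces3a takes 38.6% to 46.8% of the fresh bars and at most 0.888% of any other, Ces2e takes 36.1% to 48.8% of the HM-Wnt bars, and the bar of homeostasis 1-week replicate 2 is all Ces1c because that library holds counts of no other member.

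The second question was how HepOrgs differ from freshly isolated hepatocytes. Ces3a and Ces3b fell furthest, Ces1e, Ces1g and Ces2a fell strongly, Ces1c, Ces1d and Ces1f fell less, and Ces2e rose. In HM-Wnt, 8 of 10 members were lower than in fresh hepatocytes at each time, and 1 was higher. Ces3b, among the 8 at each time, passed the filter on low counts there only through the other groups, so its call is no separate support. It is also in the medians below. Of all 13405 genes tested, 24.8% were lower and 24.9% higher at 1 week, and 25.7% and 26.1% at 2 weeks. In MM, 7 members were lower and 1 higher at 1 week, against 21.3% lower and 21.5% higher of all genes, and 8 were lower and none higher at 2 weeks, against 20.0% lower. The median log2 fold change of the 10 members was -3.61 and -3.52 in HM-Wnt and -2.22 and -3.08 in MM at the first and second time, while that of all genes lay between -0.01 and 0.03. These tests were edgeR quasi-likelihood fits over the fresh and HepOrg libraries with Benjamini-Hochberg adjustment over all genes, and the 4 comparisons share the fresh libraries. Fitted with the assembloids, so that all 27 libraries shared 1 estimate of the spread, 5, 5, 4 and 4 members were called in place of 9, 9, 8 and 8, against 19.7%, 22.2%, 13.7% and 12.9% of all 14655 genes. In bulk libraries, fewer cells of a type and less RNA per cell cannot be told apart.

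Ces3a had 1664, 1574 and 1739 TPM (transcripts scaled to a common library total, as deposited) in the 3 fresh libraries. It had 0.388, 0.417 and 0.552 TPM in HM-Wnt at 1 week and 0.194, 0.279 and 0.0751 at 2 weeks, and 7.89, 4.08 and 1.42 in MM at 1 week and 1.82, 3.93 and 1.47 at 2 weeks. Every fresh library was above every culture. The log2 fold change against fresh was -12.26 ± 0.90 (SE derived from the F statistic, adjusted p = 4.43e-07) and -13.61 ± 0.94 (adjusted p = 2.42e-07) in HM-Wnt and -9.03 ± 0.79 (adjusted p = 2.28e-06) and -9.88 ± 0.82 (adjusted p = 1.6e-06) in MM. Ces3b, its neighbour in the array, had 195, 201 and 281 TPM in fresh hepatocytes. In HM-Wnt it had 0, 0 and 2 counts at 1 week and 0 counts in all 3 libraries at 2 weeks. Over the summed libraries, the 2 counts at 1 week give a ratio of 20860-fold lower, with a 95% Poisson interval of 5775 to 172246 that covers counting error only. The 0 counts at 2 weeks, set at a floor of 3 counts over the group, give at least 13482-fold lower. The times cannot be ordered from these ratios. In MM it had 0.421, 0.922 and 0.0161 TPM at 1 week and 0.360, 0.576 and 0.234 at 2 weeks, and the log2 fold change was -9.41 ± 0.92 (adjusted p = 1.43e-05) and -9.52 ± 0.92 (adjusted p = 1.5e-05).

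In the Ces1 array the depth of the fall differed between genes by over 6 log2 units in HM-Wnt at 1 week. Ces1e went from 148, 26.7 and 121 TPM in fresh hepatocytes to 0.678, 0.777 and 0.212 in HM-Wnt at 1 week and 4.27, 5.16 and 0.836 in MM at 1 week. Its log2 fold change was -7.91 ± 1.05 (adjusted p = 5.22e-05) and -9.09 ± 1.11 (adjusted p = 2.22e-05) in HM-Wnt and -5.33 ± 0.93 (adjusted p = 0.000565) and -5.22 ± 0.93 (adjusted p = 0.000683) in MM. Fresh replicate 2 was 4 to 6 times below the other fresh libraries for this gene and still above every culture. Ces1g went from 24.6, 31.2 and 18.9 TPM to 0.212, 0.169 and 0.146 in HM-Wnt at 1 week and to 5.10, 8.38 and 0.741 in MM at 1 week, with no overlap. Its log2 fold change was -7.62 ± 0.81 and -7.96 ± 0.83 in HM-Wnt and -2.92 ± 0.64 and -4.12 ± 0.68 in MM, with edgeR adjusted p between 5.9e-06 and 0.00273.

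Ces1c, the plasma esterase, had 167, 119 and 142 TPM in fresh hepatocytes, 67.0, 67.3 and 57.8 in HM-Wnt at 1 week, and 107, 132 and 88.2 in MM at 1 week, where the ranges overlapped on TPM and not on CPM. The log2 fold change was -1.67 ± 0.27 and -2.24 ± 0.28 in HM-Wnt and -0.97 ± 0.27 and -2.05 ± 0.28 in MM, all called, with adjusted p between 2.7e-05 and 0.0113. Without MM 1-week replicate 3 the MM value at 1 week was -0.72 with adjusted p = 0.0556. Ces1f had 201, 90.0 and 145 TPM in fresh hepatocytes and 36.4, 22.4 and 21.0 in HM-Wnt at 1 week. It fell by 2.97 ± 0.33 and 3.05 ± 0.33 on the log2 scale in HM-Wnt and by 1.52 ± 0.31 and 1.42 ± 0.31 in MM (edgeR adjusted p between 8.95e-06 and 0.00298). In MM it had 65.1 to 105 TPM at 1 week and 62.2 to 109 at 2 weeks, which overlapped the fresh libraries on TPM and not on CPM. Both MM calls were lost with limma on log2(TPM + 1) (adjusted p = 0.0508 and 0.0515) and with all 27 libraries in 1 edgeR fit (0.467 and 0.515). Ces1d, the triacylglycerol hydrolase, had 145, 76.9 and 40.8 TPM in fresh hepatocytes and 49.5, 45.7 and 29.7 in HM-Wnt at 1 week, so that the groups overlapped. It was called lower in HM-Wnt at 1 week (log2 fold change -1.58 ± 0.48, edgeR adjusted p = 0.0144) and 2 weeks (-1.77 ± 0.48, adjusted p = 0.00752) and in MM at 2 weeks (-1.33 ± 0.47, adjusted p = 0.0381), and not in MM at 1 week (-0.57). The call at 2 weeks in MM was lost without any 1 of 5 libraries and the one in HM-Wnt at 1 week without fresh replicate 1 (adjusted p = 0.0882) or HM-Wnt 1-week replicate 3 (adjusted p = 0.0608).

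The 3 members of the Ces2 group went different ways. Ces2a had 552, 452 and 404 TPM in fresh hepatocytes, 33.7, 40.2 and 31.3 in HM-Wnt at 1 week and 50.4, 74.5 and 27.8 at 2 weeks, and 11.4, 29.4 and 19.4 in MM at 1 week and 9.71, 11.9 and 7.50 at 2 weeks. All cultures lay below all fresh libraries. The log2 fold change was -4.24 ± 0.46 and -3.98 ± 0.46 in HM-Wnt and -5.16 ± 0.48 and -6.08 ± 0.51 in MM, with edgeR adjusted p between 1.63e-06 and 1.34e-05. Ces2e had 153, 229 and 126 TPM in fresh hepatocytes against 612, 475 and 601 in HM-Wnt at 1 week, 540, 536 and 578 at 2 weeks, 349, 359 and 547 in MM at 1 week and 260, 246 and 429 at 2 weeks, and on TPM every HepOrg library was above every fresh one. On CPM the highest fresh library (445) lay above the lowest MM libraries at 2 weeks (347 and 352). Ces2e rose by 1.17 ± 0.24 (edgeR adjusted p = 0.00119) and 0.86 ± 0.23 (adjusted p = 0.00781) on the log2 scale in HM-Wnt and by 0.64 ± 0.23 (adjusted p = 0.042) in MM at 1 week, and the value in MM at 2 weeks was 0.32 (not called). The 1-week MM call was lost without fresh replicate 1 (adjusted p = 0.123) or 3 (0.156) or any 1 of the MM libraries (0.0593 to 0.107). Fresh replicate 3 is the library with the MDR2-het label. Ces2c was uneven in fresh hepatocytes, with 9.60, 138 and 31.2 TPM, a span that took in all 3 HM-Wnt 1-week libraries (61.3, 80.9 and 65.6 TPM). Its log2 fold changes of -0.35, -0.31, -0.94 and -1.38 did not pass the test in any of the 4 comparisons.

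**Figure D2:**
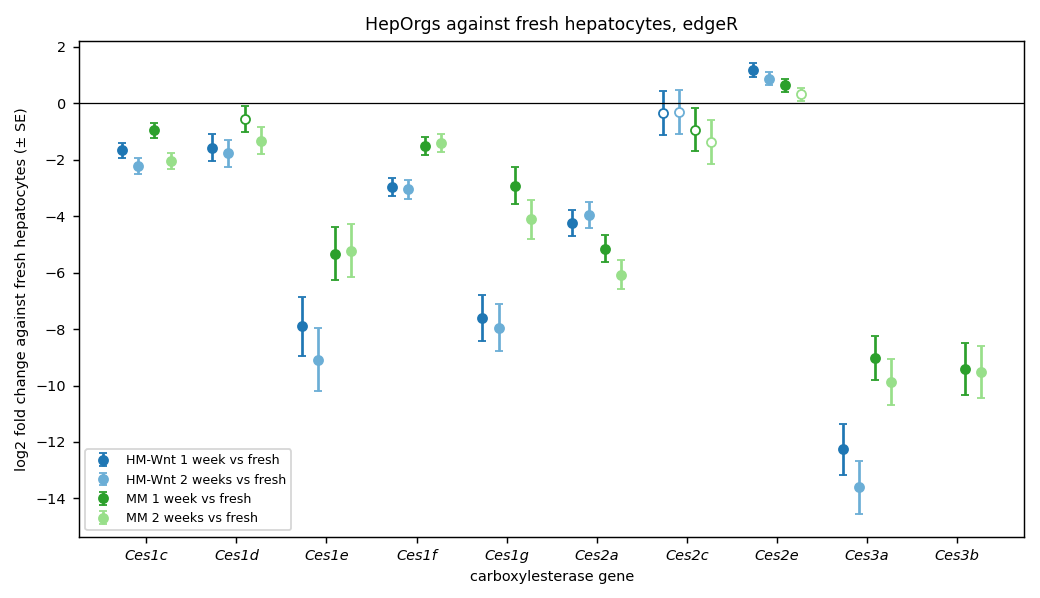
Points give the edgeR log2 fold change of each carboxylesterase in HepOrgs against fresh hepatocytes with a standard error derived from the F statistic (n = 3 libraries per condition), filled where the adjusted p passed 0.05 and open where it did not. Ces3b in HM-Wnt is left out because its libraries hold 0 to 2 counts. Ces3a, Ces1e and Ces1g are lower in HM-Wnt (blue) than in MM (green), Ces2a is lower in MM, and Ces2e alone lies above 0.

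The deposited TPM and the edgeR scale differ by a shift between these conditions. On log2(TPM + 1) the median gene was 0.40, 0.68, 0.47 and 0.40 higher in the 4 HepOrg conditions than in fresh hepatocytes, so the TPM levels understate the falls and overstate the rise of Ces2e relative to the median gene. With limma on that scale, 76.5% to 84.5% of all calls were higher in HepOrgs, against 49.6% to 50.4% by edgeR, and of the members 7, 7, 5 and 6 were lower and 1 was higher in each comparison. Of all 9671 genes tested on that scale, 13.2%, 11.1%, 9.42% and 9.3% were lower and 43.0%, 60.4%, 46.4% and 39.5% higher. Ces3b passed the filter there (a TPM of at least 1 in 3 libraries) only through fresh hepatocytes, so its calls are no separate support. No member called by edgeR changed direction.

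The third question was what the change of medium did. MM, against HM-Wnt, held more Ces1e, Ces1f, Ces1g, Ces3a and Ces3b, and less Ces2a and Ces2e. Over both times, 5 members were higher and 2 lower, against 11.5% and 10.0% of 12989 genes. Ces3b, among the 5, passed the filter on low counts only through MM, so its call is no separate support. Same-numbered HepOrg libraries deviated together, and with the replicate number as a block all 10 members were called, 7 higher and 3 lower, against 28.9% of all genes. In the fit over all 27 libraries none was called at 1 week, at 2 weeks or over both, against 0%, 0.0478% and 0.621% of all genes. Ces1g rose by 4.27 ± 0.53 on the log2 scale (adjusted p = 0.000456): its 6 HM-Wnt libraries had 0.136 to 0.218 TPM and its 6 MM libraries 0.741 to 8.38. Ces3a rose by 3.49 ± 0.51 (adjusted p = 0.00103), Ces1e by 3.22 ± 0.59 (adjusted p = 0.0036) and Ces1f by 1.54 ± 0.20 (adjusted p = 0.000652). In MM at 1 week the mean of Ces3a was 4.46 TPM, against 1659 in fresh hepatocytes. Ces3b had 90 counts in the 3 MM libraries at 1 week and 76 at 2 weeks, against 2 and 0 in HM-Wnt, which is 35.9-fold higher (95% Poisson interval 9.93 to 296) and at least 22.3-fold higher. Ces2a fell by 1.51 ± 0.31 (edgeR adjusted p = 0.00634) and Ces2e by 0.54 ± 0.12 (adjusted p = 0.0103).

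At 1 week alone Ces1f (log2 fold change 1.44 ± 0.28), Ces1g (4.69 ± 0.76) and Ces3a (3.22 ± 0.70) were called higher and no member lower, 3 of 10 against 1.76% higher of all genes. This count was 0 without HM-Wnt 1-week replicate 3 or MM 1-week replicate 1, 1 without HM-Wnt replicate 2 or MM replicate 2, and 6 without MM replicate 3, whose libraries of Ces1e, Ces1g and Ces3b were the lowest of its condition. With the block, 5 were higher and 1 lower, against 9.48% of all genes called. At 2 weeks Ces1e (3.88 ± 0.85), Ces1f (1.64 ± 0.29), Ces1g (3.86 ± 0.73), Ces3a (3.76 ± 0.73) and Ces3b were higher, 5 of 10 against 6.84%. Of these, Ces3b passed the filter on low counts only through MM. Ces2a was lower (-2.09 ± 0.45), 1 of 10 against 4.61%. With the block Ces2e was also lower (log2 fold change -0.54, adjusted p = 0.0381), against 19.6% of all genes called. Without MM 2-week replicate 1 the 2-week count was 3. The share of all genes called in these refits without 1 library is not given here. Ces1c and Ces1d had log2 fold changes of 0.69 and 0.99 at 1 week and 0.20 and 0.44 at 2 weeks, and Ces2c of -0.60 and -1.05, and did not pass without the block.

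Between the media, too, the deposited TPM carries a shift. On log2(TPM + 1) the median gene was 0.08 higher in MM at 1 week and 0.26 lower at 2 weeks (median log2 fold change -0.26), and over both times it was at -0.09. With limma on that scale 76.9%, 31.0% and 43.1% of all calls were higher in MM at 1 week, 2 weeks and over both, against 59.2%, 59.7% and 53.3% by edgeR. Ces1e, Ces1g and Ces3a passed the filter on that scale (a TPM of at least 1 in 3 libraries) only through MM. Any calls of these genes there are no separate support, and the counts below include these genes. Of the 9 members tested there, 3 were higher and 0 lower at 1 week, against 2.71% and 0.816% of all genes. At 2 weeks 3 were higher and 2 lower, against 4.1% and 9.13%, and over both times 4 and 2, against 7.73% and 10.2%.

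Time in culture was also compared. Between 1 and 2 weeks in HM-Wnt, 0 of 10 members were called by edgeR, by DESeq2 and by limma on TPM, against 0%, 0.169% and 0% of all genes. By edgeR 0 had an unadjusted p under 0.05, against 1134 of 12989 genes. With the block 0 were called (0% of all genes) and 3 had an unadjusted p under 0.05, against 2047 of 12989 genes. Their log2 fold changes were -0.60 ± 0.19 for Ces1c, -1.24 ± 0.32 for Ces1e and -1.61 ± 0.60 for Ces3a (edgeR adjusted p between 0.165 and 0.251). Between 1 and 2 weeks in MM, 0 were called by edgeR (0.0154% of all genes), 0 by limma (0.0424%) and 1, a fall, by DESeq2 (2.37%). By edgeR 1 had an unadjusted p under 0.05, against 1337 of 12989 genes. With the block 0 were called (0.0231%) and 3 had an unadjusted p under 0.05, against 1792 of 12989 genes. Their values were -1.0 ± 0.19 for Ces1c, -0.59 ± 0.24 for Ces1d and -0.86 ± 0.24 for Ces2a (edgeR adjusted p between 0.0728 and 0.305). Ces1c had the value furthest from 0 by its error there, at -1.06 ± 0.28, with 109 ± 22.1 TPM at 1 week and 49.3 ± 6.20 at 2 weeks (SD, n = 3). The difference of the medium effect between the times was called for 0 members by edgeR (0% of all genes), DESeq2 (0.354%) and limma (0%). By edgeR 0 members had an unadjusted p under 0.05, against 951 of 12989 genes. Values ranged from -1.16 ± 0.61 for Ces2a to 1.32 ± 1.08 for Ces1e. With the block 0 were called (0%) and both of these genes had an unadjusted p under 0.05, at -1.03 ± 0.33 and 1.66 ± 0.42 (edgeR adjusted p = 0.256 and 0.183). So did 1754 of 12989 genes.

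**Figure D3:**
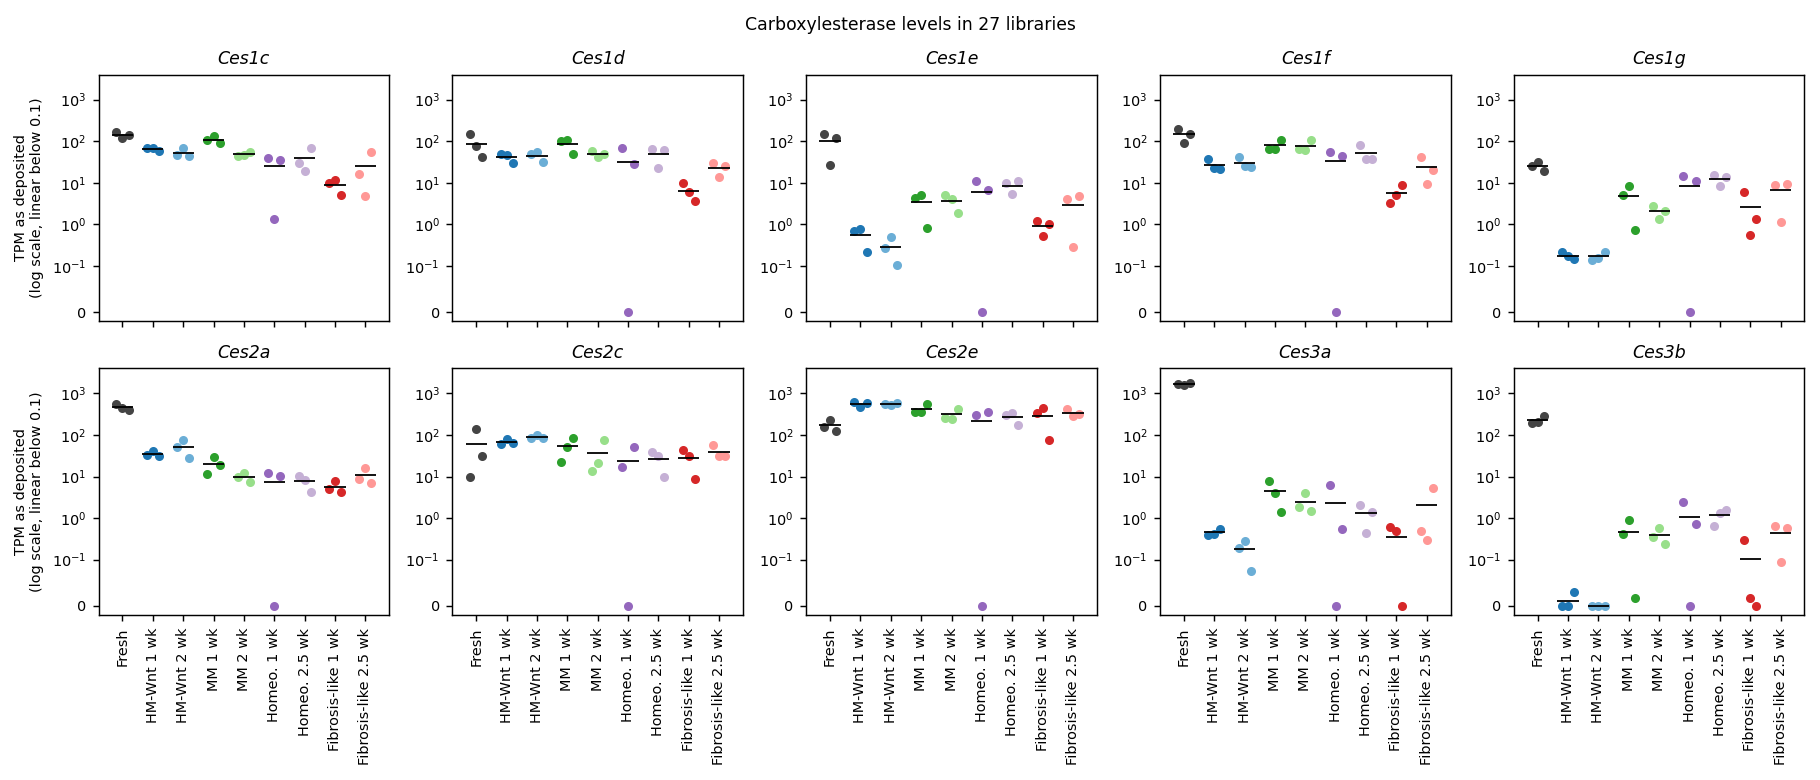
Each panel gives 1 carboxylesterase, with the deposited TPM of every library (points, 3 per condition) and the condition mean (bar) on a log axis that is linear below 0.1. Ces3a and Ces3b are high in fresh hepatocytes (1574 to 1739 and 195 to 281 TPM) and below 10 TPM in every culture, Ces2e is above its fresh libraries in every HepOrg library on this scale, and homeostasis 1-week replicate 2 lies at 0 in all panels but that of Ces1c.

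The fourth question was whether the number of mesenchymal cells in the assembloids went with the carboxylesterases. With all 12 assembloid libraries, 0 of 10 members were called between the fibrosis-like and the homeostasis form at 1 week, at 2.5 weeks or over both times, and 0% of 14253 genes were called in each. DESeq2 also called 0 members in each, against 6.08%, 1.92% and 12.4% of all genes, and so did limma on log2(TPM + 1), against 6.85%, 0% and 13.0%. Unadjusted edgeR p under 0.05 was found for 0, 0 and 2 members, against 2012, 944 and 2678 of 14253 genes. Unadjusted DESeq2 p under 0.05 was found for 6, 0 and 5 members, against 2780, 1513 and 3373 of 14253 genes. The low homeostasis library set much of the spread in this fit. Without it, 4 members (Ces1d, Ces1e, Ces1f and Ces2a) were lower in the fibrosis-like form at 1 week, against 4.87% of all genes lower. Over both times 7 were lower, against 13.4%, namely Ces1c, Ces1d, Ces1e, Ces1f, Ces1g, Ces2a and Ces3b. Without replicate 3 of the 1-week fibrosis-like assembloids as well, 1 and 5 were lower, against 0.551% and 13.0% of all genes. At 2.5 weeks 0 were called without the low homeostasis library, against 0.258% of all genes. In that fit 1 had an unadjusted p under 0.05, against 3139 of 14746 genes.

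Ces1f had 56.1, 0 and 44.4 TPM in homeostasis assembloids at 1 week and 3.26, 4.96 and 8.97 in the fibrosis-like form. The log2 fold change was -3.73 ± 1.78 (edgeR adjusted p = 0.377) with all libraries and -4.32 ± 0.73 (adjusted p = 0.04) without the low one. At 2.5 weeks it had 81.8, 36.9 and 38.0 TPM in the homeostasis form and 41.6, 9.48 and 20.4 in the fibrosis-like form, which overlap, and over both times the change without the low library was -2.91 ± 0.48 (adjusted p = 0.00883). Ces1d had 68.2, 0 and 28.7 TPM against 9.97, 5.84 and 3.59 at 1 week, and changed by -3.99 ± 0.82 (adjusted p = 0.0431) without the low library. Ces1e had 11.3, 0 and 6.85 TPM against 1.20, 0.536 and 1.01, and changed by -4.42 ± 1.03 (adjusted p = 0.0442). For each of these 3 genes only the low library overlapped the other group at 1 week.

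Ces2e and Ces2c did not pass the test. Ces2e had 301, 0 and 353 TPM in homeostasis and 336, 442 and 73.6 in fibrosis-like assembloids at 1 week, and 297, 336 and 171 against 427, 285 and 320 at 2.5 weeks. The log2 fold change over both times was -0.31 ± 1.18 (edgeR adjusted p = 0.942), and that of Ces2c was -0.15 ± 1.09 (adjusted p = 0.969). These errors are wide, and a change of several fold in either direction could not be detected. Without the low library Ces2e had log2 fold changes of -1.09 ± 0.71 at 1 week, -0.11 ± 0.64 at 2.5 weeks and -0.60 ± 0.48 over both (edgeR adjusted p = 0.296, 0.932 and 0.353). For Ces2c they were -1.06 ± 0.78 at 1 week (adjusted p = 0.351) and -0.45 ± 0.53 over both times (adjusted p = 0.535). Ces2a, called lower over both times without the low library, had a log2 fold change of -1.08 ± 0.31 (edgeR adjusted p = 0.03) in that fit. Its values there were -2.0 ± 0.46 at 1 week (adjusted p = 0.0442) and -0.15 ± 0.42 at 2.5 weeks (adjusted p = 0.846). Over both times in that fit Ces1c changed by -2.05 ± 0.69 (adjusted p = 0.0483), Ces1g by -2.30 ± 0.76 (adjusted p = 0.0451) and Ces3b by -3.15 ± 0.93 (adjusted p = 0.0326).

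The hepatocyte markers moved with these results. They summed to 14402 to 81751 CPM in fibrosis-like assembloids at 1 week and 43582 to 175624 at 2.5 weeks, against 130623 and 270221 in the other homeostasis libraries at 1 week and 175375 to 222364 at 2.5 weeks. Mesenchyme markers summed to 291 to 6066 and 1330 to 5005 CPM in the fibrosis-like form at the 2 times, against 123 to 1138 and 173 to 248 in the homeostasis form. Per 1000 counts of the 12 hepatocyte markers, the members summed to 5.05 to 5.99 counts in fibrosis-like assembloids at 1 week and 4.83 to 6.39 at 2.5 weeks. In homeostasis assembloids they summed to 6.13 and 6.68 at 1 week, 0.626 in the low library, and 5.05 to 7.55 at 2.5 weeks. On this ratio the family ranges of both forms met at 2.5 weeks. Ces1d had 0.198 to 0.458 counts per 1000 hepatocyte marker counts in the fibrosis-like form at 1 week against 1.58 and 0.854 in the homeostasis form, and Ces1f 0.111, 0.125 and 0.847 against 0.962 and 0.979. Ces2e had 2.49 to 4.09 against 1.85 and 2.79. How far the share of hepatocyte RNA sets the differences above was not tested.

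**Figure D4:**
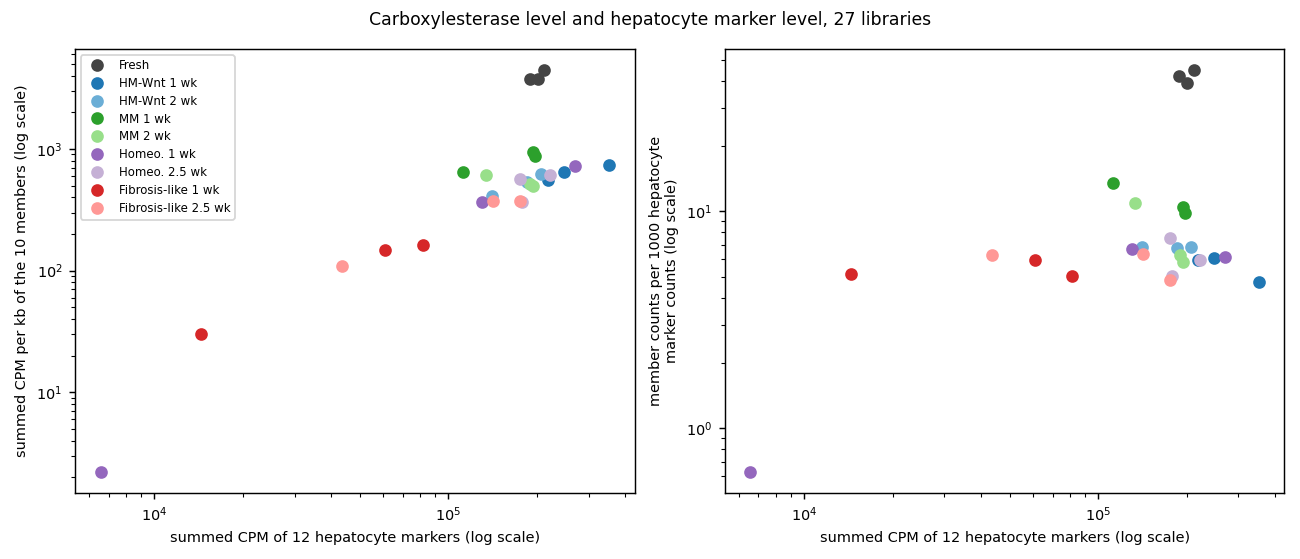
Each point is 1 of 27 libraries, with the summed CPM of 12 hepatocyte markers on the x axis, and on the y axis the summed CPM per kb of the 10 carboxylesterases (left) or their counts per 1000 hepatocyte marker counts (right), all on log axes. Fresh hepatocytes stand above all cultures (39.2 to 45.0 counts per 1000), fibrosis-like assembloids lie at 4.83 to 6.39 over a wide range of marker levels, and homeostasis 1-week replicate 2 lies alone at 0.626.

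No member was called between 2.5 weeks and 1 week. By edgeR 0 of 10 were called in the homeostasis form (0% of all genes, 0 members under an unadjusted p of 0.05) and 0 in the fibrosis-like form (0% and 0). Of 14253 genes, 936 and 122 had an unadjusted p under 0.05. DESeq2 called 0 in both (0.105% and 0% of all genes), and so did limma (0% and 0%). The difference of the mesenchyme effect between the times was called for 0 members (0% of all genes) and for 0 by DESeq2 and limma (0% and 0%). By edgeR 0 members had an unadjusted p under 0.05, against 278 of 14253 genes. All 10 members had positive values in the fibrosis-like form, from 0.72 ± 1.68 for Ces2e to 2.92 ± 2.09 for Ces3a. The share of all genes with positive values is not given here. Hepatocyte markers summed to 14402 to 81751 CPM in this form at 1 week and 43582 to 175624 at 2.5 weeks. Per 1000 counts of these markers the members summed to 5.05 to 5.99 and 4.83 to 6.39. Without the low homeostasis library edgeR again called 0 members and 0% of all genes in all 3 comparisons. In that fit 0 members in the homeostasis form, 5 in the fibrosis-like form and 3 for the difference had an unadjusted p under 0.05. The numbers for all 14746 genes were 216, 1553 and 505. In the fibrosis-like form the members were Ces1c (2.16 ± 0.94), Ces1d (2.36 ± 0.73), Ces1e (2.43 ± 0.92), Ces1f (2.84 ± 0.66) and Ces2a (1.27 ± 0.42), with adjusted p between 0.469 and 0.47. For the difference they were Ces1d (2.40 ± 1.04), Ces1f (2.81 ± 0.93) and Ces2a (1.85 ± 0.62), with adjusted p = 0.92. Without replicate 3 of the 1-week fibrosis-like assembloids as well, 0 were called and 0, 3 and 2 had an unadjusted p under 0.05, against 300, 1009 and 535 of 14530 genes.

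Assembloids were also set against HepOrgs in the same medium at 1 week. In the homeostasis form 0 members were called by edgeR (0% of 14386 genes), by DESeq2 (6.22%) and by limma (0.258%), and without the low library 0 again, against 0.027% of all genes. With all libraries 0 members had an unadjusted edgeR p under 0.05, against 2249 of 14386 genes. Ces1g had 14.8, 0 and 10.7 TPM in these assembloids and 5.10, 8.38 and 0.741 in HepOrgs in MM, and Ces1e had 11.3, 0 and 6.85 against 4.27, 5.16 and 0.836, so that all but the low library lay above the HepOrgs. In the fibrosis-like form 0 members were called by edgeR with all libraries, against 0.751% of all genes, and 5 had an unadjusted p under 0.05, against 3002 of 14386 genes. By DESeq2 4 were lower, against 5.16% of all genes, and by limma 3, against 1.21%. Without the low homeostasis library 6 members were lower, against 16.5% of all genes lower: Ces1f fell by 4.78 ± 0.62 on the log2 scale (edgeR adjusted p = 0.000826), Ces1d fell by 4.64 ± 0.74 (adjusted p = 0.00143), Ces1c fell by 4.51 ± 0.89 (adjusted p = 0.00318), Ces3a fell by 4.33 ± 1.46 (adjusted p = 0.0349), Ces1e fell by 2.92 ± 0.95 (adjusted p = 0.0298) and Ces2a fell by 2.70 ± 0.45 (adjusted p = 0.00165). Without replicate 3 of the fibrosis-like form as well, 4 were lower, against 11.1%. Ces1c had 9.75, 11.6 and 5.08 TPM there against 107, 132 and 88.2 in HepOrgs.

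Across all 9 conditions 8 of 10 members had their highest mean TPM in fresh hepatocytes. The share of all genes that are highest or separated there is not given here, so this describes the members and is no trait of the family. Ces2c was highest in HM-Wnt at 2 weeks (88.4 ± 9.81 TPM) and Ces2e in HM-Wnt at 1 week (562 ± 76.3), and Ces2e had its lowest mean TPM in fresh hepatocytes (169 ± 53.2). By CPM its fresh mean was the seventh of the 9 (317 ± 114) and its lowest was that of fibrosis-like assembloids at 1 week (203 ± 150). On TPM, fresh levels of Ces1e, Ces1g, Ces2a, Ces3a and Ces3b were separated from the next condition by a gap, and those of Ces1c, Ces1d and Ces1f overlapped with MM at 1 week. On CPM only Ces1d still overlapped there. Ces1c had 889 to 1173 CPM in fresh hepatocytes and 348 to 652 in MM at 1 week, and Ces1f 489 to 1031 and 237 to 300. For Ces2e no neighbours in the order of the 9 TPM means were separated. For Ces1c the means (SD, n = 3) were 39.4 ± 26.6 TPM in homeostasis and 25.4 ± 26.6 in fibrosis-like assembloids at 2.5 weeks, and 8.82 ± 3.38 in the fibrosis-like form at 1 week, its lowest. Ces1d and Ces1f were lowest there too, at 6.46 ± 3.23 and 5.73 ± 2.93 TPM, separated by a gap from the fibrosis-like form at 2.5 weeks (22.7 ± 8.19 and 23.8 ± 16.3 TPM). So the 3 Ces1 genes that fell least in HepOrgs were lowest in the fibrosis-like form at 1 week, while Ces1e was lowest in HM-Wnt at 2 weeks (0.285 ± 0.190 TPM). Ces2a had 50.9 ± 23.3 and 35.1 ± 4.61 TPM in HM-Wnt at 2 weeks and 1 week, 20.1 ± 9.02 and 9.70 ± 2.19 in MM at 1 and 2 weeks, and 5.63 ± 1.85 to 10.7 ± 5.05 across the 4 assembloid conditions. Ces2c had 23.0 ± 26.5 to 39.9 ± 15.1 TPM in assembloids, with overlap between all 4. In assembloids Ces3a stayed at 0.359 ± 0.317 to 2.27 ± 3.47 TPM and Ces3b at 0.102 ± 0.163 to 1.19 ± 0.473.

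For Ces1e, Ces1g and Ces3b the homeostasis assembloids at 2.5 weeks came next after the fresh level and HM-Wnt at 2 weeks came last. Ces1g had 24.9 ± 6.14 TPM in fresh hepatocytes, 12.6 ± 3.82 in those assembloids, 2.06 ± 0.719 in MM at 2 weeks and 0.169 ± 0.0434 in HM-Wnt at 2 weeks, with no overlap between the last 2. The correlation of each member with the mean of the other 9 over the 9 conditions, on standardised log2 CPM, was 0.92 for Ces1c, 0.91 for Ces1f and 0.88 for Ces1d, and it was 0.40 for Ces1g and 0.15 for Ces2e. These correlations are descriptions over conditions that share depth and cell make-up.

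Genes of related pathways were read from lists. Of the other carboxylesterase genes, 5 were tested against fresh hepatocytes and 4 fell in HM-Wnt at 1 and at 2 weeks, 2 in MM at 1 week and 5 at 2 weeks, and none rose. Of all genes, 24.8%, 25.7%, 21.3% and 20.0% fell in these 4 comparisons. The lowest in HM-Wnt at 1 week were Ces4a (log2 fold change -6.41) and Ces2b (-5.66). Between the media Ces2h rose by 1.19 and no other of these genes was called. Ces2g, singled out after its values were seen, was called lower in MM at 2 weeks alone (-0.66), with 31.0 TPM in fresh hepatocytes (26.5 to 39.6) and 35.1 in HM-Wnt at 1 week (29.9 to 39.5), and it reached 118 TPM in the homeostasis library that held 0 counts of 9 members. Of 18 other ester and lipid hydrolases tested, 9 fell and 3 rose in HM-Wnt at 1 week, against 24.8% and 24.9% of all genes. The paraoxonase Pon1 fell by 7.87 and Aadac, the arylacetamide deacetylase, by 2.83 on the log2 scale, and the lipase activator Abhd5 rose by 1.17 and the cholesteryl ester hydrolase Nceh1 by 0.69. In MM against HM-Wnt over both times 10 rose, among them Pon1 by 2.03 and the monoacylglycerol lipase Mgll by 1.46, and 2 fell, Abhd5 (-0.46) and Pon2 (-0.32), against 11.5% higher and 10.0% lower of all genes. The median of this list was -0.39 against fresh and 0.70 between the media, where all genes had 0.02 and -0.02.

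Of 7 genes of triacylglycerol storage and VLDL assembly, 6 fell in HM-Wnt at 1 week against fresh hepatocytes and none rose (24.8% and 24.9% of all genes), with the lipid droplet protein gene Cideb at -2.56 and Dgat2, the acyltransferase of the last step of triacylglycerol synthesis, at -2.45. Between the media over both times 6 rose and none fell (11.5% and 10.0% of all genes), led by Cideb at 1.13 and the lipid droplet coat gene Plin2 at 1.04, with a list median of 0.57. Of 9 liver transcription factors and nuclear receptors, 8 fell in HM-Wnt at 1 week (24.8% of all genes), with the xenobiotic receptor Nr1i3 (CAR) at -4.11 and Cebpa, the C/EBP alpha gene, at -3.38, and Nfe2l2 (NRF2) rose by 1.03. Between the media 6 rose (11.5% of all genes) and none fell, with the bile acid receptor Nr1h4 (FXR) at 1.70 and Nr1i3 at 1.36, and a list median of 0.73. Without the low library, the fibrosis-like form had 4 lower hydrolases, 4 lower storage genes and 1 lower factor at 1 week, against 4.87% lower of all genes, and no higher one, with Plin5 at -3.40, Cideb at -2.40, Mgll at -2.96, Aadac at -2.35 and Nr1h4 at -2.90. Of 7 other carboxylesterase genes tested there, none was called.

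The genes whose level over the 9 conditions was most like the mean standardised level of the 10 members were Ldhd, Apoc1, Cyp2d9, Hdhd3 and Alad, each with Pearson r = 0.99 over 9 condition means among 9354 genes compared. Cyp2d9, a cytochrome P450, went from a mean of 754 TPM in fresh hepatocytes to 97.4 in HM-Wnt at 2 weeks and 42.6 in fibrosis-like assembloids at 1 week. The least like were Pea15a (r = -0.99), Nop58 (-0.98) and Nradd (-0.97). Pea15a went from 8.65 TPM in fresh hepatocytes to 66.2 and 258. The likeness rests on the fresh and the fibrosis-like 1-week conditions, which hold the ends of the mean standardised level (1.59 and -1.34, the other 7 between -0.36 and 0.35).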

How the data were processed

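Bulk RNA-seq of 27 titled libraries was used, and 10 further libraries of the same table were not used here. The deposited table gives raw read counts per gene, which the authors obtained by alignment to GRCm39 with STAR and counting with featureCounts from SMART-seq2 libraries read as paired 100-base reads. Their treatment of reads that map to several genes is not given in the sources used here. It also gives TPM computed by the authors from those counts and a length column, which lay within 5% of the gene span for 80.8% of genes. TPM is therefore relative to gene span, and levels of different genes were compared as CPM per kb of canonical transcript. Libraries held 30289364 to 65348596 counts.

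The members and all gene lists were chosen with earlier results of these data known. Counts were tested with edgeR 4.0.16 (TMM scaling, low genes removed by filterByExpr at count 10 and total 15, quasi-likelihood test, Benjamini-Hochberg adjustment over all genes tested, threshold 0.05) in R 4.3.3. Separate fits held fresh hepatocytes with HepOrgs, HepOrgs alone, assembloids alone, and assembloids with HepOrgs in MM. The SE of an edgeR value was the absolute log2 fold change divided by the square root of the F statistic. Fold changes were shrunk with a prior count of 2 and F was not, so this SE is only approximate where counts are near 0. Alternatives were DESeq2 1.42.0, limma 3.58.1 on log2(TPM + 1) and log2(TPM + 0.1), other size factors, other filters, other sets of libraries, a replicate block and leaving out each library. Leaving out homeostasis 1-week replicate 2, alone or with fibrosis-like 1-week replicate 3, from all assembloid comparisons was chosen after seeing the data. Where a group held 0 to 3 counts, fold changes came from summed counts with a floor of 3 counts or a 95% Poisson interval, which cover counting error only. The fits were tested on simulated counts. The labels do not say whether replicates came from separate animals, so p-values measure the spread between these libraries. All 27 pairs of replicates differed beyond sampling noise.

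Library numbers were checked as pairs from the correlation of deviations from group means. In the HepOrg fit all 18 same-numbered pairs exceeded 0.1 (0.127 to 0.503), and the blocked values are given. In the other fits they did not (19 of 30, 6 of 18 and 11 of 45 pairs). All 10 members were named. From the lists of other carboxylesterases, ester and lipid hydrolases, triacylglycerol and VLDL genes, and liver transcription factors, the genes called with the highest and lowest fold changes were named, up to 2 in each direction. Similar genes were ranked by Pearson r with the mean standardised log2 CPM of the members among genes with a mean of at least 5 CPM.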

Additional observations from a re-analysis of the deposited data

How the results depend on the processing

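No member called in any comparison reversed its direction under any alternative run. Of 1276 refits of single members, 1124 kept their side of the threshold, 84 lost a call and 68 gained one. The numbers of members called against fresh hepatocytes (9, 9, 8 and 8 in HM-Wnt at 1 and 2 weeks and MM at 1 and 2 weeks) fell to 5, 5, 4 and 4 with all 27 libraries in 1 fit, against 19.7%, 22.2%, 13.7% and 12.9% of all genes. The HM-Wnt numbers include Ces3b, which passed the filter only through other groups. Those for MM against HM-Wnt (3, 6 and 7 at 1 week, 2 weeks and both) were 0, 0 and 0 in that fit, and the fibrosis-like form had 2 calls against the homeostasis form over both times and 3 against HepOrgs, where the reported counts were 0. The cause was not tested. For MM against HM-Wnt at 1 week, DESeq2 called 6 (against 1420 of 12989 genes), the replicate block 6 (9.48% of all genes), and a fit of those groups alone 0. The block gave 7 at 2 weeks (19.6%) and 10 over both times (28.9%), and changed no count of calls against fresh hepatocytes and called no member in assembloids. DESeq2 called 1 between the times in MM (2.37%). No share of all genes is given here for the assembloid calls in the 27-library fit, for fits of the compared groups alone, or for the ranges from leaving out 1 library at a time. Those counts do not show whether members moved more than other genes.

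For fibrosis-like assembloids against HepOrgs (0 reported), DESeq2 called 4, against 5.16% of all genes lower, and a fit of those groups alone called 5. Limma called 3 on log2(TPM + 1), against 1.21% lower, and 1 on log2(TPM + 0.1), against 63 of 10857 genes lower. A filter of at least 10 counts in every library, which left 1 member to test, gave 1. Without homeostasis 1-week replicate 2, the fibrosis-like form had 4 lower members at 1 week, 7 over both times and 6 against HepOrgs (4.87%, 13.4% and 16.5% of all genes). Without fibrosis-like 1-week replicate 3 as well it had 1, 5 and 4 (0.551%, 13.0% and 11.1%). Leaving out 1 library at a time gave 8 to 9, 9 to 9, 6 to 8 and 7 to 8 calls against fresh hepatocytes, 0 to 6, 3 to 8 and 7 to 9 for the media, 0 to 4 and 0 to 7 for the mesenchyme ratio at 1 week and over both times, 0 to 6 for fibrosis-like assembloids against HepOrgs, and 0 in the other comparisons. Shares taken from counts without transcript length were 49.5% and 49.1% for Ces2e in HM-Wnt (41.9% and 41.7% per kb), 28.2% for Ces1c in MM at 1 week (33.5%) and 31.7% for Ces2e in MM at 2 weeks (26.8%). By mean CPM in place of TPM, 9 of 10 members were highest in fresh hepatocytes, in place of 8, and the mean of Ces2e was lowest in fibrosis-like assembloids at 1 week in place of fresh hepatocytes. Neither count has a share of all genes beside it. With 3 libraries per condition and 0 to 53 counts of Ces3b in HepOrgs, its values there have wide errors.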
